A study of Mus musculus with 20 samples.

Results

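The 7 genes described here act where blood cells leave small veins and were followed through a mouse model of VEGF-A driven vessel growth: Vwf, Ackr1, Selp, Sele, Icam1, Icam2 and Vcam1. They were taken by name, as the probe sets annotated to exactly 1 of these symbols. All 7 were found, on 11 probe sets, among the 18194 genes with a probe set of their own. Each gene was read from its probe set with the highest mean signal, and 6 of the 7 were among the 13595 genes bright enough to test (mean signal of at least 300). The gene left untested was Sele, whose mean signal was 268.3.

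Leukocytes leave the blood mainly through postcapillary venules. They are first caught by selectins, P-selectin (Selp) and E-selectin (Sele), which bind sugars on the leukocyte, and are then held by integrins that grip ICAM-1, ICAM-2 and VCAM-1 on the endothelium. P-selectin is stored with von Willebrand factor (Vwf) in Weibel-Palade bodies, the secretory granules of endothelial cells, and Ackr1 (the Duffy antigen) is a chemokine-binding receptor that marks venular endothelium. Icam1, Vcam1 and Sele are textbook targets of inflammatory cytokines and NF-kappaB, whereas Icam2 is present on resting endothelium without them.

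Flank tissue of mice was profiled on 20 Affymetrix whole-genome mouse arrays after Ad-VEGF-A164, an adenovirus that expresses VEGF-A164, an isoform of the main vessel growth factor. The groups were day 0 control flank (5 arrays, A to E), and Ad-VEGF-A164 flank of day 5 (4 arrays, B to E), of day 20 (5 arrays) and of day 60 (5 arrays). The array titled day 5 A carried the source name of a day 0 control and entered no comparison. The title of the series concerns stromal signatures for grouping gastric cancers. Strain, sex, age, vector dose and the treatment of the controls are not given in these sources. An empty vector is named by no label, so effects of VEGF-A, of the vector and of injection cannot be told apart. No label says that arrays were separate animals, so p-values measure only how far these samples spread, and that spread may be technical. In whole tissue, fewer cells of a type and less RNA per cell cannot be told apart.

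Facts of the series that touch the 7 genes are as follows. The values are MAS5 signals, a linear brightness per probe set, and the number of arrays limits the precision. The vector's gene, Vegfa, checks the labels: its brighter probe set had mean signals of 197 (control), 6739 (day 5), 9256 (day 20) and 463 (day 60), while its other set ran the other way, at 2022, 719.9, 1029 and 1750.1. The ratio of 3' to 5' Actb signal, which grows as RNA breaks down, lay between 4.154 and 9.122 in control, 2.952 and 7.307 on day 5, 2.598 and 7.56 on day 20, and 4.32 and 13.968 on day 60, with day 60 A, B and D the highest. Endothelial markers were measured in every group, and the 12 genes of an index (Pecam1, Cdh5, Tie1, Tek, Esam, Egfl7, Cldn5, Robo4, Mmrn2, Ramp2, Erg and Ptprb) summed to between 26362 and 32479 in control, 84932 and 91122 on day 5, 74511 and 102994 on day 20, and 27108 and 52307 on day 60. Of the index genes 11 rose and 0 fell on day 5, and 12 rose on day 20. Epidermal, muscle and adipocyte markers were also measured in all groups. Of 6 tested adipocyte markers 5 fell on day 5 and 5 on day 20 (median log2 changes -2.02 and -3.16). Of 7 muscle markers 2 fell on day 5 (median -1.06) and 0 on day 20, and of 8 epidermis markers 0 fell on day 5 and 3 on day 20 (median -1.19). For all tested genes the shares called were 16.8% higher and 17.5% lower on day 5, and 15.6% and 14.5% on day 20. The part of these changes of tissue in the results below was not tested.

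The promoters of 4 of the genes are shown because cytokine control of this family is studied at NF-kappaB sites. They are RefSeq windows on GRCm38.p6, from 250 bases before to 50 bases after the annotated start, written 5′ to 3′ on the gene's strand. Capitals mark matches to GGNNNTTCC, a kappaB motif, on either strand. Selp and Sele lie near each other on chromosome 1, on the plus strand, and the start used for Sele lies inside the span annotated to that gene.
Ackr1, chr1:173333454-173333753, minus strand: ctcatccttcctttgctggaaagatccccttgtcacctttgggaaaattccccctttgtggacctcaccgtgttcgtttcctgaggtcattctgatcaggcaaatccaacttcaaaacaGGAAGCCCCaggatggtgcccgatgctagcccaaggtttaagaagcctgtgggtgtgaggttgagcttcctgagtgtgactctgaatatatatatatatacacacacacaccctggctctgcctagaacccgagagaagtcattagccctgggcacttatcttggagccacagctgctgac
Selp, chr1:164115014-164115313, plus strand: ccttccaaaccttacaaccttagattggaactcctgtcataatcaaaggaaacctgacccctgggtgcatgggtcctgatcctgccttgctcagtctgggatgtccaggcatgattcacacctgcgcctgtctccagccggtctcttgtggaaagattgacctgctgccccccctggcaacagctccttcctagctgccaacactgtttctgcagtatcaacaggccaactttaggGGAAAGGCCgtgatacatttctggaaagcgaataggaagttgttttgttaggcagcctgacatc
Sele, chr1:164047984-164048283, plus strand: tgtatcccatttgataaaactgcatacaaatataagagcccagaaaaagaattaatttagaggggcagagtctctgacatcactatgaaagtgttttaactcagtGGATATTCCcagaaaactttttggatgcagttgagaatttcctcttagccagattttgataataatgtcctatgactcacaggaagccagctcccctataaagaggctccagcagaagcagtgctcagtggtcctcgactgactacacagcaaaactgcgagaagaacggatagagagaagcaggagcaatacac
Icam1, chr9:21015690-21015989, plus strand: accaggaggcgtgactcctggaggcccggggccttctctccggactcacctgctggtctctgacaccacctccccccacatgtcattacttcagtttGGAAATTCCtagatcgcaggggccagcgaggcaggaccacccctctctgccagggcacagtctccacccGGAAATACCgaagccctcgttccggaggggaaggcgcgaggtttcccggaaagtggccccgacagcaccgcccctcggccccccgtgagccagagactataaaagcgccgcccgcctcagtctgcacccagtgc

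The motif occurred in 18.5% of the 32544 promoter windows of the same length. In Icam1 it was matched 153 bases before the start, where GGAAATTCC reads as a match on both strands, and again 84 bases before the start on the minus strand. Sele held GGATATTCC 145 bases before the start. The matches of Selp and Ackr1 lay on the minus strand, 14 and 131 bases before the start. AGGAAG, the core of many ETS factor sites, was in 35.1% of windows, and was matched 3 times in Ackr1 (1 match overlaps its kappaB match), 2 times in Selp, 1 time in Sele and 0 times in Icam1. TATAAA (13.6% of windows) was matched 49 bases before the start in Sele and 13 bases after it in Icam1, and AGATAA (11.2%) was matched 1 time in Ackr1, on the minus strand after the start. A match is a run of letters, and occupancy of these sites was not measured.

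Day 5 and day 20 against control asked how the venular adhesion genes stood early and midway in the course, and day 60 how they stood at its end. On day 5 the integrin ligands Icam2, Icam1 and Vcam1 rose 9.10-fold, 2.91-fold and 4.02-fold, while Ackr1 and Vwf fell and Selp did not pass the test. So 5 of 6 tested genes were called, 3 higher and 2 lower, where 34.3% of all tested genes were called, 16.8% higher and 17.5% lower. On day 20 the 3 integrin ligands and Selp were higher, 4 of 6 (30.1% of all genes were called, 15.6% higher), and 0 were lower (14.5% of all genes). On day 60 limma called 0 of 6 (1.13% of all genes, 0.368% higher and 0.765% lower). Before adjustment 2 genes were under 0.05, Vcam1 with a limma p of 0.0087 and Vwf with one of 0.00771. The median log2 change over the 6 genes was 0.64, 0.96 and 0.35 on days 5, 20 and 60, against -0.07, -0.06 and 0.01 over all genes. Called means a Benjamini-Hochberg adjusted p under 0.05 in limma over all 13595 genes, and fold changes come from log2(signal + 100), so those of dim genes are understated.

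**Figure D1:**
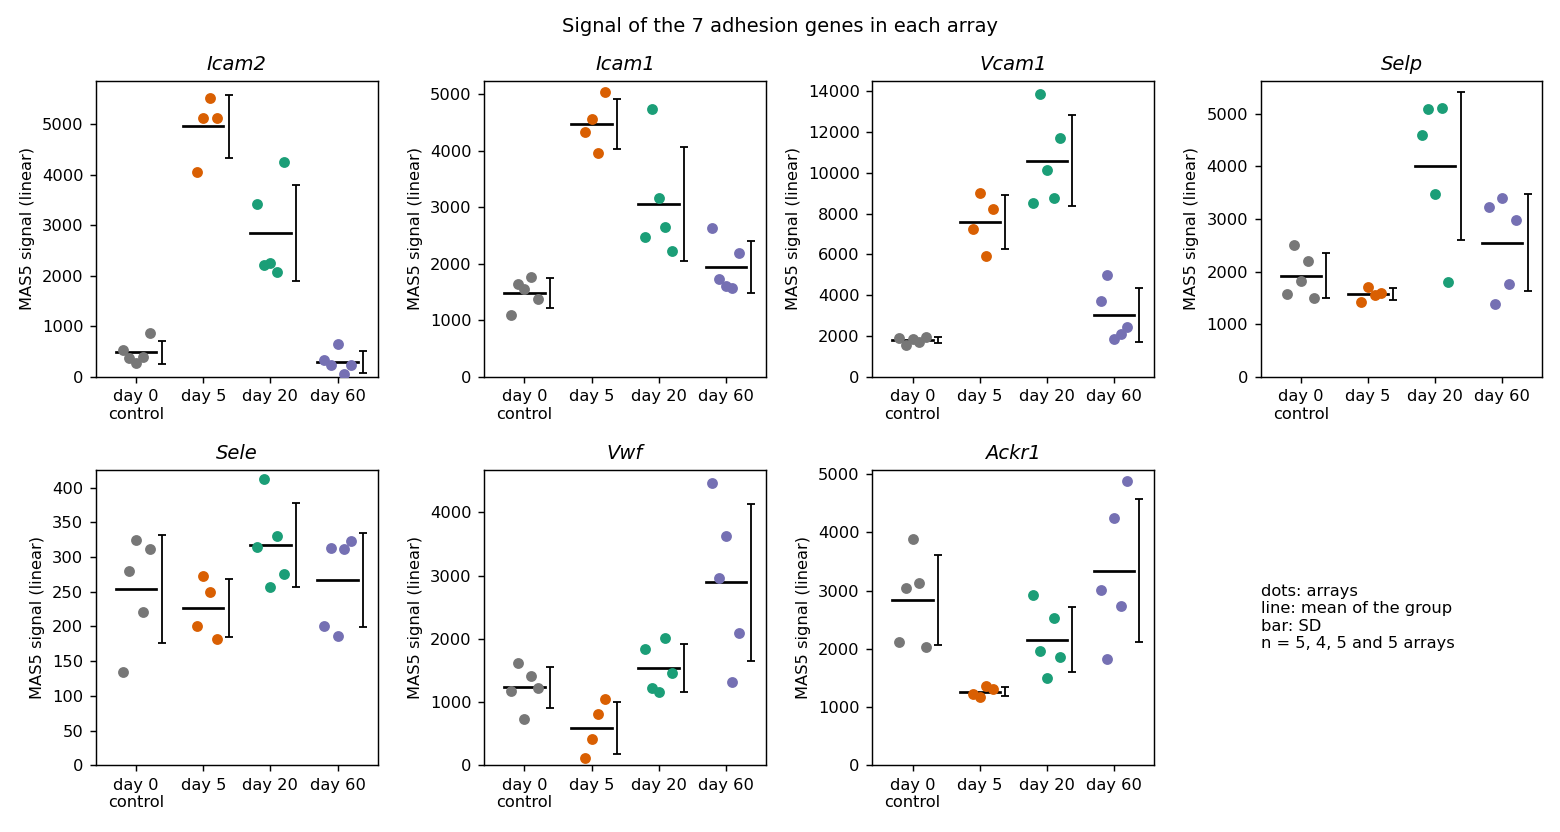
MAS5 signal (linear axis from 0) of each of the 7 genes in each array, for day 0 control (n = 5), day 5 (n = 4), day 20 (n = 5) and day 60 (n = 5); dots are arrays, lines are means and bars are SD. Icam2, Icam1 and Vcam1 are high on days 5 and 20, and Selp has its highest mean on day 20. Ackr1 is low in all 4 day 5 arrays, and Sele reads 411.8 at most.

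Icam2, a ligand of the leukocyte integrin LFA-1 that sits at endothelial junctions, had the largest change of the 6 tested genes on day 5 against control. Its signal was 523, 373, 269, 392 and 859 in control A to E, and 4060.1, 5122, 5513 and 5122 in day 5 B to E. It was 3412, 2218, 2260.0, 2074 and 4246 in day 20 A to E, and 321, 224, 641, 54.2 and 229 in day 60 A to E. Every day 5 and day 20 array lay above every control array, and the day 60 arrays overlapped control. Log2 changes of Icam2 against control were 3.19 ± 0.34 (SE; limma adjusted p = 1.14e-06) for day 5, 2.36 ± 0.32 (adjusted p = 1.83e-05) for day 20 and -0.66 ± 0.32 (adjusted p = 0.32) for day 60. In order of mean signal the groups ran day 5, day 20, control, day 60. Day 20 and day 5 did not pass as different (-0.83 ± 0.34, adjusted p = 0.173), but did with a pseudocount of 500 (-0.74, adjusted p = 0.0385) and in a fit of those days alone (adjusted p = 0.0355). In Icam2 day 60 was 8.12-fold below day 20 (-3.02 ± 0.32, adjusted p = 1.84e-06), and the day 5 and day 20 rises were called in all 34 alternative settings.

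Vcam1, the ligand of the integrin VLA-4 (Itga4 with Itgb1) on monocytes and lymphocytes, was highest on day 20. Its main probe set read 1909, 1571, 1850.5, 1703 and 1949.6 in control A to E, and 7241, 9004, 5896 and 8202 in day 5 B to E. On day 20 the 5 arrays read 8493, 13881, 10153, 8749 and 11706, and on day 60 they read 3700.2, 5005, 1833, 2114 and 2458. All arrays of days 5 and 20 lay above all controls, and on day 60 arrays A and B stood above the other 3, of which C lay within the control range. Log2 changes of Vcam1 against control were 2.01 ± 0.23 (SE; limma adjusted p = 2.32e-06) for day 5, 2.48 ± 0.21 (adjusted p = 1.05e-07) for day 20 and 0.63 ± 0.21 (adjusted p = 0.145) for day 60. The order of means was day 20, day 5, day 60, control. Day 20 and day 5 did not pass as different (0.47 ± 0.23, adjusted p = 0.258), while day 60 was 3.60-fold below day 20 (-1.85 ± 0.21, adjusted p = 5.14e-06). Day 60 A and B were among the arrays with high Actb ratios, as was D, which read 2114. Without day 60 A, B and D, a setting chosen after seeing the data, 2 day 60 arrays remained. There day 60 stood 0.23 above control (limma adjusted p = 0.767). The reason was not tested.

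The other probe sets of Vcam1 were dimmer and moved less. The brighter of them averaged 837.2 ± 177.2 on day 5 and 491.7 ± 125.9 in control (SD, n = 4 and n = 5), a log2 change of 0.67 (limma adjusted p = 0.0251 over all single-gene probe sets). On day 20 it averaged 1074.5 ± 134.4, a change of 1.01 (adjusted p = 0.00104). The dimmest set had changes of 0.44 for day 5 (adjusted p = 0.518) and 0.43 for day 20 (adjusted p = 0.517). So the direction held on all 3 sets on days 5 and 20, with the call on 2, and the size of the rise differed from set to set. On day 60 the main set stood above control, and both other sets stood below it at -0.21 and -0.64, none of them called.

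Icam1, a ligand of LFA-1 and Mac-1 that cytokines raise on many cell types besides endothelium, was highest on day 5. It read 1098, 1632, 1547, 1764 and 1369 in control A to E, and 4319.5, 4558, 3962 and 5032 in day 5 B to E. It read 2476, 4743, 3167, 2641 and 2215 in day 20 A to E, and 2633, 1727, 1602, 1578 and 2183 in day 60 A to E. Every array of days 5 and 20 was above every control, with day 20 B the highest of its group by a wide gap, and day 60 overlapped control. Log2 changes of Icam1 against control were 1.54 ± 0.20 (SE; limma adjusted p = 9.07e-06) for day 5, 0.96 ± 0.19 (adjusted p = 0.000657) for day 20 and 0.36 ± 0.19 (adjusted p = 0.355) for day 60. The order of means was day 5, day 20, day 60, control, and the day 5 rise was called in all 34 alternatives. Day 20 did not pass as different from day 5 (-0.58 ± 0.20, adjusted p = 0.0934), but did without day 20 B (-0.75, adjusted p = 0.0178).

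Icam1 on day 60 was 1.51-fold below day 20 (-0.60 ± 0.19, adjusted p = 0.0256). That call ended without day 20 B or C, or without day 60 B, C or D, with adjusted p-values of 0.0828, 0.0516, 0.0514, 0.0603 and 0.0691. It also ended with the Actb ratio as a covariate (-0.57, adjusted p = 0.0908), without day 60 A, B and D (-0.62, adjusted p = 0.108), with day 5 A counted as control (adjusted p = 0.136) and in a fit of days 20 and 60 alone (adjusted p = 0.0705). The day 20 rise of Icam1 over control ended where day 5 A was counted as control (0.70, adjusted p = 0.0664).

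Selp, the selectin released to the endothelial surface from Weibel-Palade bodies and also made by platelets, was high on day 20. It read 1573, 2514, 1826, 2204 and 1489 in control A to E, and 1421, 1710.4, 1558 and 1595 in day 5 B to E. On day 20 the arrays read 4592, 5092, 3469, 5118 and 1802, and on day 60 they read 3229, 1384, 3392, 1761 and 2988. On day 20 arrays A to D lay above every control and E within the control range, while day 5 and day 60 overlapped control. On day 60 arrays A, C and E lay above every control, and B and D did not. Log2 changes of Selp against control were -0.25 ± 0.28 (SE; limma adjusted p = 0.526) for day 5, 0.96 ± 0.27 (adjusted p = 0.0105) for day 20 and 0.34 ± 0.27 (adjusted p = 0.552) for day 60. The means ran day 20, day 60, control, day 5, and no neighbours in that order passed as different. Against day 5, day 20 was 2.32-fold higher, with no overlap between the arrays (1.21 ± 0.28, adjusted p = 0.0155), where 5.30% of all genes were called, 3.05% higher and 2.25% lower. That call, on the main probe set, held in all 34 alternatives, with limma adjusted p-values between 0.00149 and 0.0482.

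Day 20 E had the lowest Selp signal and the highest Actb ratio of day 20 (7.56), and with that ratio as a covariate Selp on day 20 was no longer called against control (0.66, adjusted p = 0.0633). Without day 20 E, day 60 fell below day 20 in Selp (-0.88, adjusted p = 0.0107), against -0.62 ± 0.27 with it (adjusted p = 0.102). Both other Selp probe sets were dim, at mean signals of 268.7 and 226.6, under the minimum. The brighter of the pair averaged 445.0 ± 159.4 on day 20 and 198.4 ± 114.1 in control (SD, n = 5 each), a change of 0.90 (adjusted p = 0.0705), and the dimmer averaged 329.8 ± 107.8 on day 20 and 231.8 ± 67.3 in control, a change of 0.36 (adjusted p = 0.488). Both had their highest group mean on day 20, as did the main set. Against day 5 their day 20 changes were 1.11 and 1.15, and neither was called (limma adjusted p = 0.107 and 0.0655).

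**Figure D2:**
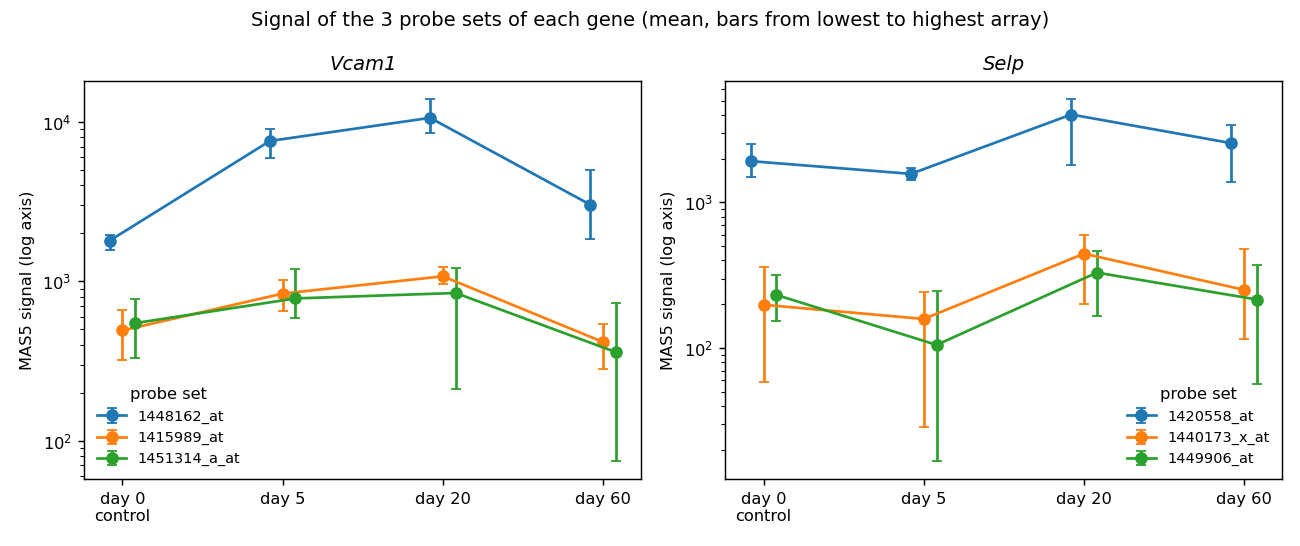
Mean MAS5 signal on a log axis of the 3 probe sets of Vcam1 and the 3 of Selp in control, day 5, day 20 and day 60; bars run from the lowest to the highest array. All 6 sets have their highest mean on day 20, and on the dimmest Vcam1 set the day 20 arrays spread from 211.2 to 1209.5.

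Platelets carry Selp as well, so their markers were followed. Of 5 tested platelet markers 2 rose on day 5, Ppbp and Pf4, and 0 fell. Their median log2 change on day 5 was -0.07, and that over all genes was -0.07. On day 20, 1 rose, the chemokine Ppbp (log2 change 3.75 ± 0.51, limma adjusted p = 1.95e-05), with a median of 0.23 over the 5. Gp9 and Gp6 lay under the minimum. Among all tested genes 16.8% were called higher on day 5 and 15.6% on day 20. The summed signal of the platelet markers ran from 10044 to 12585 in control, 15451 to 28900 on day 5, 12501 to 37726 on day 20, and 9552 to 17242 on day 60. Pf4 alone averaged 15283 on day 5, where the median sum was 17935, and 6467 in control. The part of platelets in the Selp signal was not tested.

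Sele, the selectin that endothelium makes on cytokine exposure, was near the floor of the arrays throughout. It read 134, 279.5, 324, 221 and 312 in control A to E, and 201, 272, 250.3 and 182 in day 5 B to E. It read 314, 412, 257, 330.1 and 276 on day 20, and 201, 312, 186, 312 and 323 on day 60. All groups overlapped. In a fit with no minimum signal its log2 changes were -0.09 ± 0.20, 0.26 ± 0.18 and 0.06 ± 0.18 on days 5, 20 and 60 (limma adjusted p = 0.784, 0.352 and 0.916). A change of Sele was not detectable at this signal.

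Vwf, the clotting and platelet-binding protein that endothelial cells store and secrete, was lowest on day 5 and highest on day 60. It read 1178, 1619, 739, 1407 and 1230.1 in control A to E, and 122, 414, 809 and 1045 in day 5 B to E. It read 1836, 1217, 1159.7, 2017 and 1461 on day 20, and 4457, 2959.5, 3629.8, 1313 and 2098 on day 60. Day 5 B and C lay below every control and D and E within the control range, and on day 60 all arrays but D lay above every control. Log2 changes of Vwf against control were -1.15 ± 0.39 (SE; limma adjusted p = 0.0282) for day 5, 0.30 ± 0.37 (adjusted p = 0.564) for day 20 and 1.09 ± 0.37 (adjusted p = 0.137) for day 60. The means ran day 60, day 20, control, day 5, and of neighbours in that order only control and day 5 passed as different. Between days, day 20 was 2.73-fold above day 5 with no overlap (1.45 ± 0.39, adjusted p = 0.0347). Day 60 was 4.71-fold above day 5, also with no overlap (2.24 ± 0.39, adjusted p = 0.000354).

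The day 5 fall of Vwf rested on few arrays. Without day 5 B the log2 change was -0.68 (adjusted p = 0.14), and it also missed the threshold without day 5 C (-1.08, adjusted p = 0.0701), control B (-1.04, adjusted p = 0.057) or control D (-1.09, adjusted p = 0.057). In day 5 B to E the Actb ratio was 2.952, 3.604, 5.427 and 7.307, in the same order as Vwf, and with this ratio as a covariate the change was -0.99 (adjusted p = 0.0766). It was -0.87 with array weights (adjusted p = 0.0553), -1.06 with the title letter as a replicate block (adjusted p = 0.0581) and -0.85 with day 5 A counted as control (adjusted p = 0.172). The call of Vwf as higher on day 20 than on day 5 ended without day 5 B (0.98, adjusted p = 0.114), day 5 C (1.39, adjusted p = 0.091) or day 20 A, D or E (adjusted p = 0.0794, 0.0858 and 0.0593), and in 4 other settings (adjusted p between 0.0509 and 0.0989). The day 60 against day 5 call of Vwf held in all 34 alternatives.

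Ackr1, which takes up inflammatory chemokines and is used as a marker of venules, fell on day 5. It read 2115, 3039, 3890.2, 3135 and 2035 in control A to E, and 1219, 1181, 1362 and 1306 in day 5 B to E. It read 2930.0, 1971, 1509, 2525 and 1866 on day 20, and 3015, 1820.0, 4244, 2737 and 4892 on day 60. The 4 day 5 arrays lay close together and below every array of the other groups, and days 20 and 60 overlapped control. Log2 changes of Ackr1 against control were -1.07 ± 0.25 (SE; limma adjusted p = 0.00244) for day 5, -0.38 ± 0.23 (adjusted p = 0.235) for day 20 and 0.19 ± 0.23 (adjusted p = 0.723) for day 60. Day 60 was 2.39-fold above day 5 (1.26 ± 0.25, adjusted p = 0.00101), and neighbours in the order day 60, control, day 20, day 5 did not pass as different. Day 20 against day 5 gave 0.69 ± 0.25 (adjusted p = 0.112) with no overlap, and passed in a fit of those days alone (adjusted p = 0.0363). The day 5 fall against control held in all 34 alternatives (-1.28 to -0.86). With the Actb ratio as a covariate Ackr1 was also called lower on day 20 (-0.63, adjusted p = 0.0453), and without day 60 B it was called higher on day 60 than on day 20 (0.75, adjusted p = 0.0167), against 0.56 ± 0.23 with it (adjusted p = 0.0893).

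**Figure D3:**
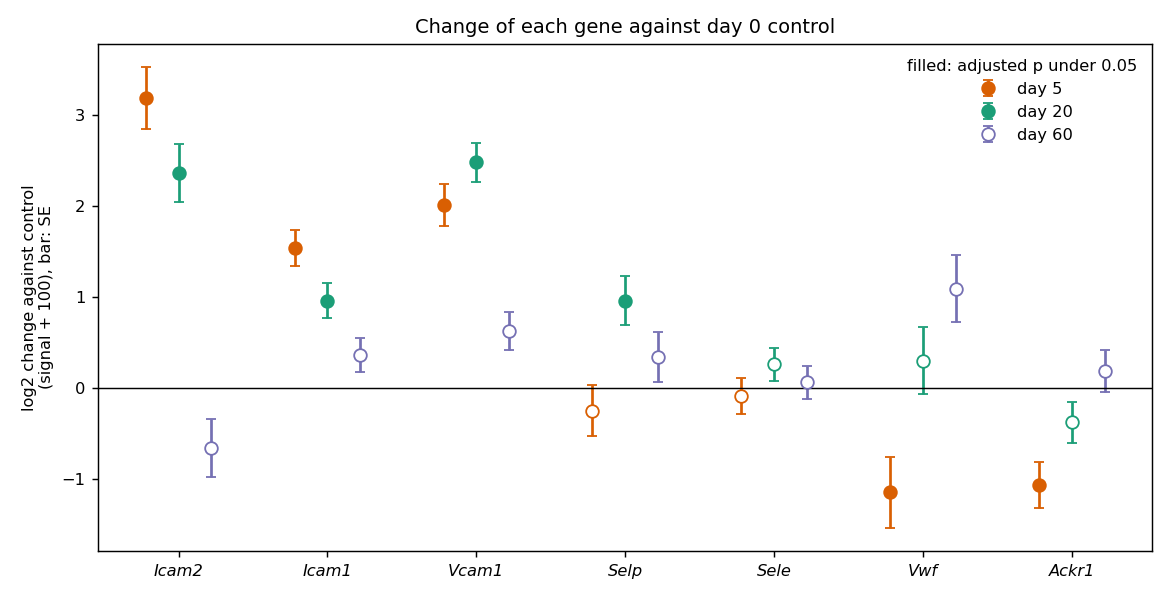
Log2 change against day 0 control of each gene on days 5, 20 and 60, on the log2(signal + 100) scale; bars are SE and filled points have a limma adjusted p under 0.05 (Sele from a fit with no minimum signal). The integrin ligands run from 3.19 (Icam2, day 5) down to -0.66 (Icam2, day 60), while Vwf and Ackr1 lie at -1.15 and -1.07 on day 5.

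Against day 20, day 60 was lower in Icam2, Vcam1 and Icam1, 3 of 6, where 22.1% of all genes were called and 11.2% lower. Against day 5, day 60 was lower in the same integrin ligands (log2 changes of -3.85 ± 0.34, -1.38 ± 0.23 and -1.18 ± 0.20) and higher in Vwf and Ackr1, 5 of 6, where 24.4% of all genes were called, 12.2% in each direction. Selp on day 60 did not pass against day 5 (0.59 ± 0.28, adjusted p = 0.14), but did without day 60 B (0.78, adjusted p = 0.043). These comparisons share arrays and are not independent. Over the 19 arrays, log2 signals of Icam1 and Icam2 had a Pearson correlation of 0.76, Icam1 and Vcam1 0.80, Icam2 and Vcam1 0.79, and Vwf and Ackr1 0.61. Ackr1 ran against Icam2 (-0.71), and Selp stood near 0.05 with Icam2 and 0.15 with Icam1. The arrays of a group share their day, so these are descriptions of the course over days.

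Because endothelial genes rose together, each gene was also set against the endothelial index in its own array, as log2(signal + 100) minus the mean of the 12 index genes. Its mean over arrays was 10.65 for control, 12.28 for day 5, 12.22 for day 20 and 10.90 for day 60. Against it, Icam2 stood 1.56 higher on day 5 than in control, with no overlap (exact two-sided permutation p = 0.0159, the smallest that 4 against 5 arrays allow, and limma adjusted p = 1.96e-05 over all genes). Of all genes 94.0% were called in that comparison, 0.978% as higher and 93.0% as lower. Icam1 differed from its control value by -0.09 on day 5 (exact permutation p = 0.651), and Vcam1 was 0.38 higher (exact permutation p = 0.0476, limma adjusted p = 0.117). The Vcam1 difference depended on the setting. It ran from 0.0 to 0.5 over 25 alternatives, and from 0.29 to 0.5 where single arrays were left out.

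Ackr1, Vwf and Selp stood lower relative to the index on day 5 than in control. Their differences were -2.69, -2.77 and -1.88, with no overlap with control in any of them (exact permutation p = 0.0159 each). A gene that did not change at all falls against a rising index, and the median difference over all genes was -1.70. Selp lay above 35.6% of genes on this measure, Ackr1 above 5.8% and Vwf above 4.9%. On day 20 Vcam1 was 0.91 above its control difference with no overlap (exact permutation p = 0.00794, the smallest that 5 against 5 allow, where 94.9% of all genes were called and 0.949% higher), and Icam2 was 0.79 above (exact permutation p = 0.0238, limma adjusted p = 0.00717). Ackr1 (-1.94) and Vwf (-1.26) were below with no overlap (p = 0.00794 each by exact permutation, and 94.0% of all genes called lower), while Icam1 and Selp overlapped control. For Icam1 the difference was -0.61 (exact permutation p = 0.0635), which limma called lower (adjusted p = 0.0104), and for Selp it was -0.60 (exact permutation p = 0.151, limma adjusted p = 0.0505). The median day 20 difference over all genes was -1.62. Icam1 and Selp each lay above 93.6% of genes on this measure, Vwf above 76.5% and Ackr1 above 23.6%. So Icam1, Selp and Vwf fell less against the index than most genes did. On day 60 differences ran from -0.91 for Icam2 to 0.84 for Vwf, all overlapping control (limma called 0 of 6, against 1.73% of all genes, 0.0294% higher and 1.70% lower). The unadjusted exact permutation p was under 0.05 for 2 of them, Vwf (p = 0.0317) and Icam2 (p = 0.0397). The 18 exact tests are given unadjusted.

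**Figure D4:**
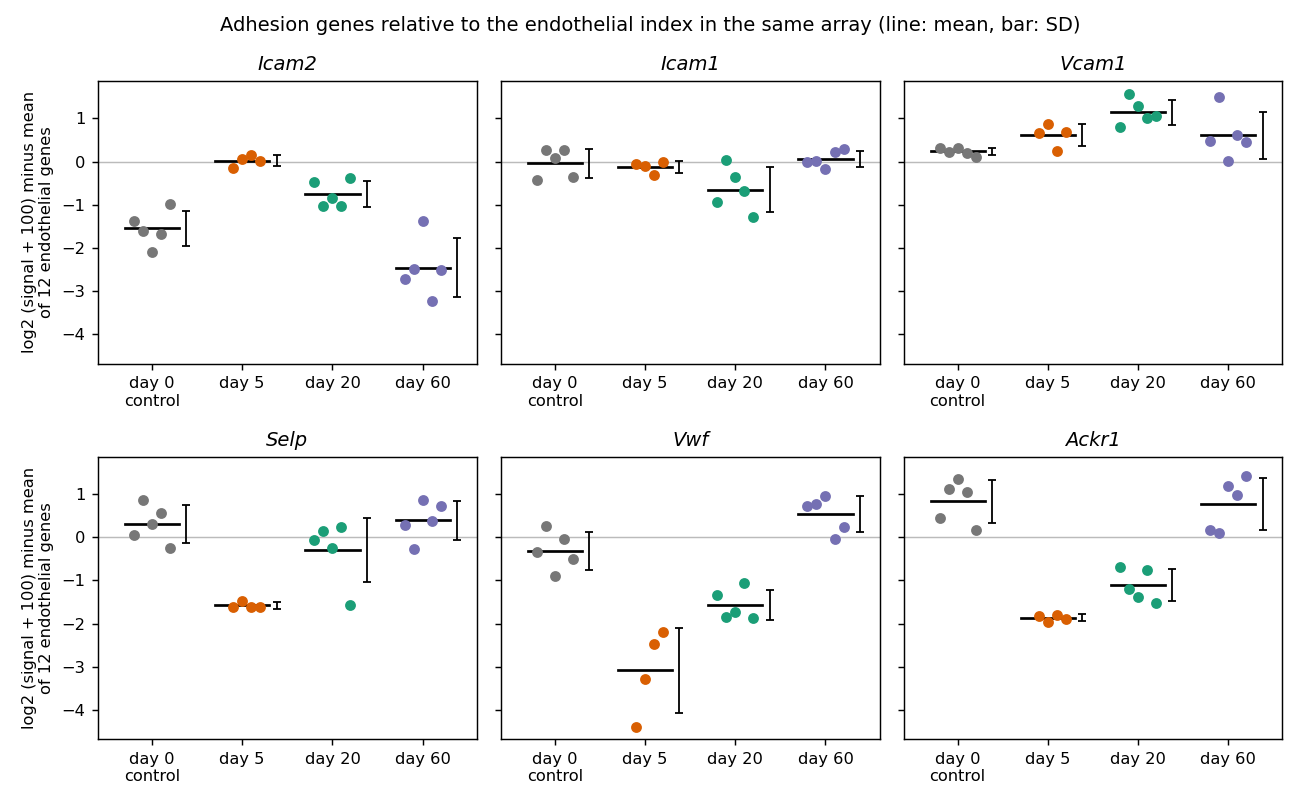
Each tested gene in each array relative to the endothelial index of that array (log2 scale), for control, day 5, day 20 and day 60; lines are means and bars are SD. Icam2 averages 0.01 on day 5, against -1.54 in control, whereas Vwf, Ackr1 and Selp average -3.08, -1.86 and -1.58 on day 5, against -0.31, 0.83 and 0.30 in control.

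Of 9 other venous endothelial genes tested, 5 rose, 0 fell and 4 did not pass on day 5 (median log2 change 1.12), and 5 rose and 1 fell on day 20 (median 0.76). Emcn, a sialomucin of venous and capillary endothelium, rose 8.28-fold on day 5 (12375 ± 2366 on day 5 and 1403 ± 255 in control, SD), and Plvap, the protein of fenestral diaphragms, rose 3.82-fold. The member that fell on day 20 was Lrg1 (-1.01 ± 0.26, limma adjusted p = 0.00564). Of 9 arterial genes 7 rose on day 5 (median 1.10) and 8 on day 20 (median 0.83), among them the transcription factor Sox17 (2.02 ± 0.26 on day 20) and the gap junction gene Gja4 (1.60 ± 0.25). On day 60, 1 venous and 0 arterial genes were called against control, and against day 5, day 60 was higher in 1 venous gene and lower in 3. No difference between these genes and Ackr1 or Vwf was tested. Among all tested genes 16.8% were called higher and 17.5% lower on day 5, and 15.6% and 14.5% on day 20. On day 60 the share called against control was 1.13%, and against day 5 it was 12.2% in each direction.

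Leukocyte receptors that bind the 7 genes' products rose in most cases. Of 11 tested counter-receptors, 7 rose and 1 fell on day 5 (median 1.24) and on day 20 (median 0.94). For this and the lists below, 16.8% of all genes were called higher and 17.5% lower on day 5, and 15.6% and 14.5% on day 20. Itgb2, the beta chain of LFA-1 and Mac-1 and so the partner of Icam1 and Icam2, rose 4.46-fold on day 5 (5117 ± 899 on day 5 and 1091 ± 308 in control, SD; log2 change 2.16 ± 0.30, limma adjusted p = 2.19e-05) and 2.39-fold on day 20. Itgb1, the beta chain of VLA-4 that binds Vcam1 but is made by most cells, rose 3.91-fold and 3.51-fold. Cd24a, a sialoprotein that can carry P-selectin ligands, fell (-1.50 ± 0.21 and -0.77 ± 0.19). Monocyte and macrophage markers moved with them: 8 of 11 rose and 1 fell on day 5, and 5 rose and 2 fell on day 20, with sums of 50061 to 106877 in control, 189972 to 269361 on day 5, 90172 to 201952 on day 20, and 40947 to 217447 on day 60. Of 7 tested neutrophil markers 0 rose and 1 fell on day 5, and 3 rose and 1 fell on day 20, including S100a9 (1.93 ± 0.42) and the granule protein gene Ltf (-2.86 on day 20), and 7 of 9 lymphocyte markers lay under the minimum. Macrophages can make Icam1 and Vcam1, and their part in those signals was not tested.

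By median summed signal, markers of mural cells, the pericytes and smooth muscle around vessels, ran in the same group order as the main Vcam1 set. Both other Vcam1 sets put day 60 below control. Mural sums of day 60 and control overlapped, and 0 of 9 mural markers were called on day 60. Of 9 tested, 6 rose and 0 fell on day 5 (median log2 change 0.97), and 8 rose and 1 fell on day 20 (median 1.56). Their summed signal ran from 77309 to 98952 in control, 141661 to 190055 on day 5, 272934 to 338525 on day 20, and 72223 to 186284 on day 60. Of 9 fibroblast markers 4 rose and 4 fell on day 5 (median -0.67), and 4 rose and 2 fell on day 20 (median 0.24), with sums of 199213 to 314518 in control, 246880 to 318480 on day 5, 303945 to 487625 on day 20, and 236438 to 393036 on day 60. Beside these counts stand the shares over all genes, 16.8% higher and 17.5% lower on day 5, and 15.6% and 14.5% on day 20. The part of mural cells or fibroblasts in the Vcam1 and Icam1 signals was not tested.

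Molecules of the next step, passage through endothelial junctions, changed in part: 4 of 10 rose and 1 fell on day 5 (median 0.41), and 6 rose on day 20 (median 0.54). Pecam1, the junctional receptor for leukocyte passage, rose by a log2 change of 1.48 ± 0.22 on day 5 and 1.32 ± 0.20 on day 20, Esam by 1.37 ± 0.16 and 1.28 ± 0.15, and Cd99l2 fell on day 5 (-0.72 ± 0.16). Of 6 tested enzymes that build selectin ligands, 1 rose (Galnt1, 0.54 ± 0.14) and 1 fell (St3gal6, a sialyltransferase, -1.37 ± 0.35) on day 5, and 0 rose and St3gal6 fell on day 20 (-1.08 ± 0.33). Fut7, the fucosyltransferase of leukocyte selectin ligands, was under the minimum. Among all tested genes 16.8% were called higher and 17.5% lower on day 5, and 15.6% and 14.5% on day 20. In either direction these were 34.3% and 30.1%, and the enzyme counts lay near or under those shares.

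Partners of Vwf and P-selectin in the storage granule moved in both directions. Of 11 tested genes of Weibel-Palade cargo, release and von Willebrand factor processing, 3 rose and 1 fell on each of days 5 and 20, with medians of 0.26 and 0.10. These counts lay near the share of all genes called, 34.3% on day 5 and 30.1% on day 20. The cargo genes Igfbp7 (1.87 ± 0.19 on day 5 and 2.67 ± 0.18 on day 20) and Tnfrsf11b, which encodes osteoprotegerin (2.53 ± 0.42 and 2.63 ± 0.40), rose. Myrip, a Rab27a effector that holds the granules at the actin cortex, fell on day 5 (-1.10 ± 0.24, limma adjusted p = 0.00161), and Rab3d fell on day 20 (-0.65 ± 0.17).

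Cytokines known to raise the adhesion genes, and the signalling steps below them, were counted in the same way. Of 17 tested, 4 rose on day 5 and 6 on day 20, with 0 lower (medians 0.45 and 0.42). Over all genes 16.8% and 15.6% were called higher on these days, and 17.5% and 14.5% lower. In either direction 34.3% and 30.1% of all genes were called. The share called in this list lay under that on day 5 and near it on day 20. Il6 rose 4.30-fold on day 5 (1622 ± 880 on day 5 and 276 ± 81 in control, SD), and Il1b rose on day 20 (1.82 ± 0.28) but did not pass on day 5 (0.37 ± 0.30, adjusted p = 0.358, limma). Tnf and Ifng were under the minimum signal. Of the 10 chemokines that Ackr1 binds, 5 rose on day 5 (median 1.33) and 6 rose and 1 fell on day 20 (median 1.13). Ccl2, a monocyte attractant, rose 12.74-fold on day 5 when Ackr1 was lowest (3815 ± 2391 on day 5 and 181 ± 77 in control, SD; log2 change 3.67 ± 0.31, limma adjusted p = 9.9e-08), and 2.78-fold on day 20, while the eosinophil attractant Ccl11 fell on day 20 (-0.79 ± 0.28).

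**Figure D5:**
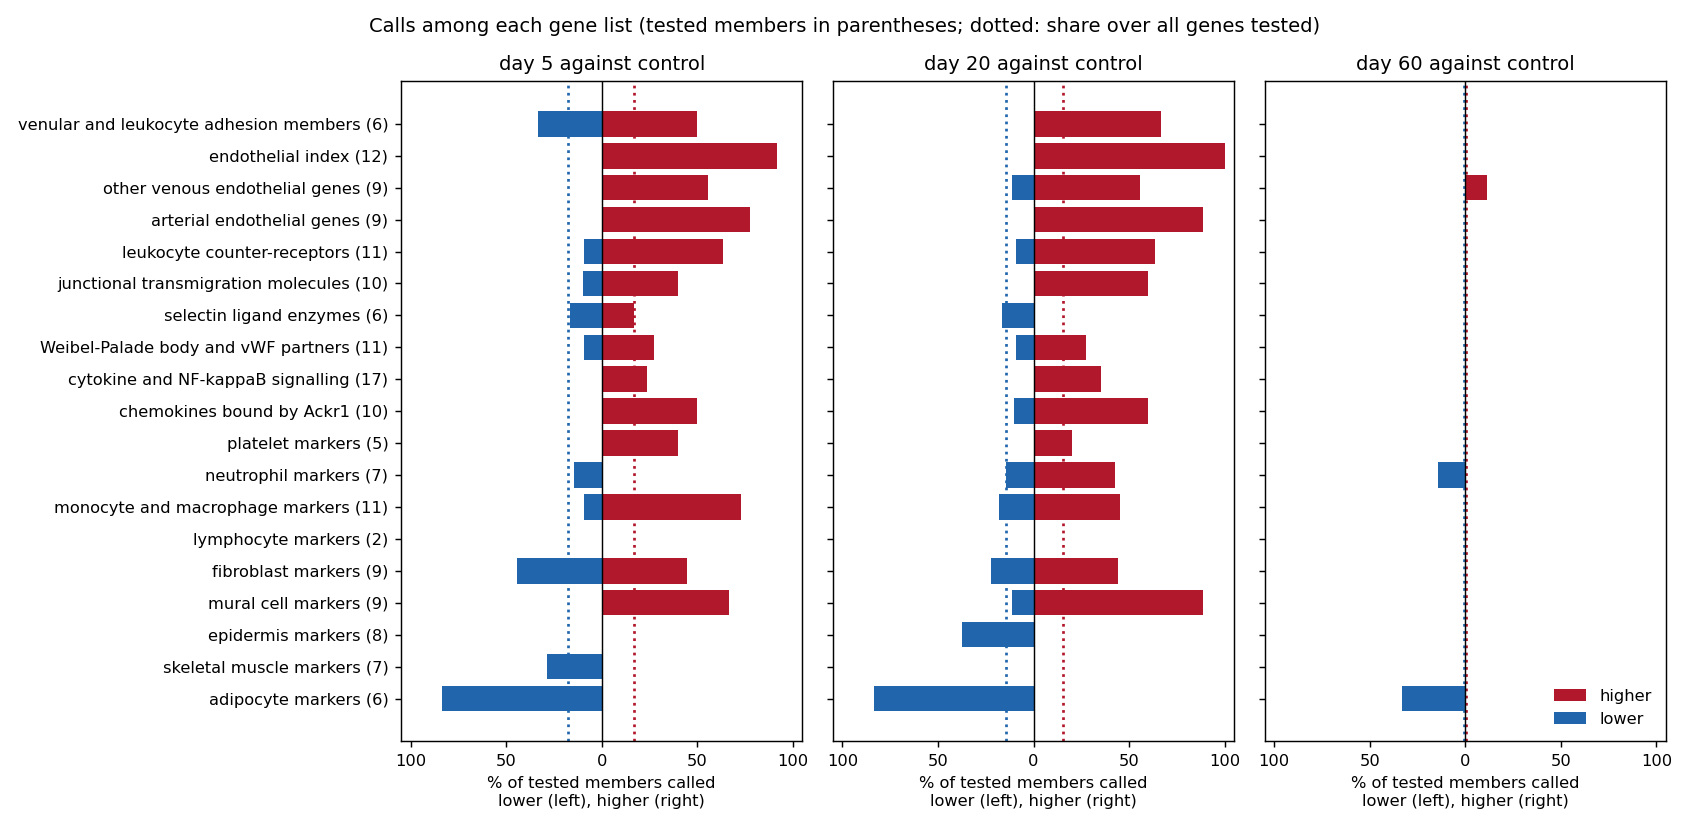
Share of the tested genes of each list that limma called higher (right) or lower (left) on days 5, 20 and 60 against control, with the share over all genes tested as dotted lines and the number tested in parentheses. All 12 index genes are called higher on day 20, and on day 60 few lists hold any call.

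The genes whose log2 signal most resembled each adhesion gene over the 19 arrays were taken by Pearson correlation, as a description of arrays that share their group. For Icam2 these were Emcn (0.958), Gimap4 (0.954) and Golm1 (0.948). For Vcam1 they were F2r, the thrombin receptor PAR1 (0.982), S1pr3 (0.970) and the basement membrane collagen Col4a2 (0.970). For Icam1 they were Cthrc1 (0.950), Praf2 (0.949) and Emp3 (0.949). For Ackr1 they were Gpr1 (0.922), Sema3c (0.895) and Efcab14 (0.892), and for Vwf they were Dvl1 (0.901), Ndrg1 (0.876) and Cytl1 (0.865). Selp had the loosest neighbours, Acvr1 (0.816), Fam124a (0.806) and Cilp (0.793). Group means of Emcn over control and days 5, 20 and 60 were 1403, 12375, 10866 and 1190, and those of Sema3c were 14504, 3343, 7598 and 22614.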

How the data were processed

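Total RNA of mouse flank was hybridised to 20 arrays. The deposited values were MAS5 intensity values on a linear scale, made by the authors with MAS5 in GCOS 1.3 per the submitters' processing notes and scaled to 1500 per the labels. They were used without further scaling.

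Probe sets with 1 gene symbol in the platform annotation (34958 of 45101) named genes, and each gene was read from the set with the highest mean signal in the 19 assigned arrays. Groups came from source names and titles. Tests used limma 3.58.1 in R 4.3.3 on log2(signal + 100), with 1 fit of the 4 groups, a trended eBayes and two-sided contrasts, adjusted by Benjamini-Hochberg over 13595 genes. The fit was tested on simulated data. Differences from the endothelial index used exact permutation over arrays; for counts of calls these were adjusted over their 18 values, and limma over every gene minus the index was added after seeing the data. The 7 genes and all gene lists were chosen with earlier results of these data known, so no list was tested. Named genes were the 7, from each list the 2 called members with the largest change and up to 3 called against their list, the 3 closest correlates of each, and Vegfa. Promoters were matched by symbol for 4 of the 7 genes. Alternatives covered pseudocount (1, 500), minimum signal (none, 1000), quantile and 75th percentile scaling, eBayes without a trend, array weights, pairs of groups alone, the title letter as replicate block, the placing of day 5 A, the Actb ratio, every probe set and each array left out. The setting with every probe set kept the main set of each member and adjusted over all single-gene sets. Arrays left out included those of neither group compared, which enter only through the shared spread. Leaving out day 60 A, B and D together was added after seeing the data.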

Additional observations from a re-analysis of the deposited data

Results flagged for a closer look

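Changes between days passed the test in 10 cases among the 6 tested genes, on the log2(signal + 100) scale in limma. Of all genes 5.30% were called for day 20 against day 5, 22.1% for day 60 against day 20 and 24.4% for day 60 against day 5. Day 20 was above day 5 in Selp (1.21) and Vwf (1.45). Day 60 was below day 20 in Icam1 (-0.60), Icam2 (-3.02) and Vcam1 (-1.85). Day 60 was below day 5 in Icam1 (-1.18), Icam2 (-3.85) and Vcam1 (-1.38), and above it in Ackr1 (1.26) and Vwf (2.24). The Vwf call of day 20 against day 5 and the Icam1 call of day 60 against day 20 each ended in 9 of 34 alternatives.

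The array titled day 5 A, which the labels also call a day 0 control, had signals above all 5 controls in 3 genes: Icam1 at 4415, Icam2 at 4055 and Vcam1 at 6585. Its Vwf was 275, its Ackr1 1131 and its Selp 1163, each below all controls. The Ackr1 and Selp values also lay below those of day 5 B to E. A check for an array far from its group flagged 0 arrays in 28 combinations of gene and group. Single arrays still changed calls when left out, as day 20 B did for Icam1 and day 20 E for Selp.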

How the results depend on the processing

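Of the 7 genes, 6 could be tested, and Sele is limited by its dim signal. Against control, the members called numbered 4 to 5 on day 5, 3 to 4 on day 20 and 0 on day 60 over 34 alternatives. For members called on day 20 against day 5 the count was 2, and it became 4 with array weights, 1 with the replicate block, 1 with day 5 A counted as control and 1 over every probe set, and ran from 1 to 3 when each array was left out. The labels do not say what the title letters share. Same-letter arrays had a median correlation of deviations of 0.02 (27 pairs, -0.27 to 0.35), against -0.03 for other letters. Of the same-letter pairs 11 were over 0.1, and 3 of 19 arrays were most like one of their own letter. These correlations cannot show whether a letter stands for a shared animal or batch. With the letter as a replicate block, members called numbered 4 on day 5, 4 on day 20 and 0 on day 60 against control, and 3 and 5 for day 60 against days 20 and 5.

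Members called relative to the endothelial index numbered 4, 3 and 0 of 6 on days 5, 20 and 60, by exact permutation adjusted over 18 values. On the same measure limma called 94.0%, 94.9% and 1.73% of all genes on these days. On day 20 the count was 5 with limma over every gene minus the index, an alternative chosen after seeing the data. On day 60 it was 1 with a pseudocount of 500. With each array left out the counts ran from 0 to 4 on day 5, from 0 to 4 on day 20 and from 0 to 2 on day 60, the 2 being Icam2 and Vcam1 without day 60 C. The counts of 0 came with any control (days 5 and 20) or any day 5 array (day 5) left out, where, for day 5, 3 against 5 arrays allow no exact p below 0.0357 and 4 against 4 none below 0.0286.

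Differences from the index near 0 changed sign in some settings. Icam1 on day 5 was 0.02 with a pseudocount of 500. On day 60 Ackr1 was 0.06 with an index of Pecam1 and Cdh5 alone and 0.47 without day 60 A, B and D (chosen after seeing the data), where Vcam1 was 0.00. With each array left out, Ackr1 on day 60 ran from -0.23 to 0.11 and Selp from -0.05 to 0.26. The cause was not tested.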
